A study of Mus musculus with 14 samples.

Results

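Myb and Myc encode transcription factors that leukemic cells depend on, and both genes are served by enhancers far from their starts. All peaks of 10 chromatin immunoprecipitation sequencing (ChIP-seq) lists that touched any of 3 windows of the mouse genome (build mm9) were taken as the members. The windows were chr10:20800000-21050000, which holds Myb and the interval up to its neighbour Hbs1l, chr15:61750000-61900000, which holds Myc and the beginning of Pvt1, and chr15:63300000-63650000, which holds the blood enhancer cluster (BENC) downstream of Myc. They held 452 of the 532629 peaks, with 181 in the Myb window, 65 in the Myc window and 206 in the BENC window.

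The antibodies were against MLL1, against WDR5 and against dimethylated lysine 4 of histone H3 (H3K4me2). The cells were MAF9 cells, that is, mouse bone marrow transduced with the MLL-AF9 fusion. They were kept in IMDM with 15% serum, to which 10 ng/ml IL-3 was added, and a 2 day treatment with 20 µM MM-401 was set against DMSO. In the second pair, transduced cells with the genotype MLL1 flox/flox, ER-Cre+/- were given 400 nM 4OHT, also over 2 days, and EtOH was the control. Per the study, the MLL1 antibody recognises the C-terminal part of MLL1, which the fusion lacks. Every group carried the MLL-AF9 transgene, and both members of the second pair also carried floxed Mll1 and the Cre. No MLL1 list came with the second pair, so that deletion of Mll1 under 4OHT could not be checked from the peak lists. Per the study, genotyping was used to measure how efficient the deletion was.

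H3K4me2 marks active or poised promoters and enhancers. MLL1 is a methyltransferase of H3K4, and WDR5 is a subunit shared by the complexes of MLL1 and its relatives. MM-401 is an inhibitor of MLL1 binding to WDR5, and 4OHT switches on the Cre that removes floxed Mll1. MYB keeps hematopoietic progenitors and leukemic cells from maturing, and enhancers in the interval between Myb and Hbs1l are known from erythroid cells. MYC drives growth and proliferation, and BENC is known as its distant enhancer in blood stem cells and in MLL-AF9 leukemia.

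Each condition and antibody had 1 library and the lists hold positions only, without scores or read counts. Read depth was therefore unknown, no replicate error could be given, and no test between conditions was run. A peak missing from a list means that it was not called there. Whole lists ranged from 8525 to 41054 peaks for MLL1 and WDR5, and from 91305 to 105136 peaks for H3K4me2. The 2 treated H3K4me2 lists covered less sequence (90.8 and 91.2 Mb) than their controls (97.2 and 101 Mb). The cell type of the labels could not be checked, as peak positions hold no expression of marker genes.

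The DNA in front of Myb is shown first because MLL1 carries a CXXC domain, which binds CpG dinucleotides that are not methylated. It is set beside the DNA in front of Hbs1l, the next start on the upstream side. Both runs are the 250 bases before the RefSeq start, 5′ to 3′ along the gene (GRCm38.p6, chromosome 10, minus strand for Myb and plus strand for Hbs1l), and capitals mark CpG.
Myb: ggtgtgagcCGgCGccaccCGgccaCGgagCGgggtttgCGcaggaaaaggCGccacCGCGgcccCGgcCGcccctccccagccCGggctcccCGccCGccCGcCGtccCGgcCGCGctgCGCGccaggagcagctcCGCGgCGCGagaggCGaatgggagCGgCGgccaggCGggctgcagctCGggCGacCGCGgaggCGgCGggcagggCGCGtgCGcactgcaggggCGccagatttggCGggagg
Hbs1l: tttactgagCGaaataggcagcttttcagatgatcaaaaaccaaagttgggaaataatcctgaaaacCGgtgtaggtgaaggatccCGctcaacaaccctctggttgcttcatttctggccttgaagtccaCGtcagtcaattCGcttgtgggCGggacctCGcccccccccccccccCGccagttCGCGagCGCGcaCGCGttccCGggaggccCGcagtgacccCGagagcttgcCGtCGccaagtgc
The Myb promoter held 40 CpG and 81.2% G or C. As many CpG were present in 1.31% of the 32851 mouse promoters in the same table, whose median was 6 CpG and 52.4% G or C. The Hbs1l promoter held 19 CpG, a number reached by 19.7% of promoters. The ETS core CCGGAA (in 12.0% of promoters on either strand) and the E-box CACGTG (6.02%) had 0 matches in both runs. The MYB core AACTG (39.1%) had 0 matches in the Myb run and 1 in the Hbs1l run, on the opposite strand. The MLL1 peak nearest to the Myb start lay about 3 kb into the gene, both in DMSO and under MM-401. MLL1 was thus not called over the Myb run, and a link between MLL1 and these CpG was not tested. No promoter sequence of Myc was available.

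H3K4me2 lay over nearly the whole Myb gene in every condition. With peaks joined across gaps of up to 500 bp, this domain ran from chr10:20847426-20882975 in DMSO, or 35.5 kb. It measured 33.0 kb under MM-401, 37.4 kb in EtOH and 34.8 kb under 4OHT. In all 4 lists it began 2 or 3 kb before the Myb start and ended 31 to 35 kb into the gene. By length it ranked 7 of 63157 H3K4me2 domains in DMSO, 8 of 57154 under MM-401, 18 of 53338 in EtOH and 8 of 50246 under 4OHT. The mark was thus not limited to the Myb promoter, and the domain was among the longest of each library.

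The widest peak inside the domain was 28575 bp in DMSO, 20400 bp under MM-401, 33975 bp in EtOH and 26000 bp under 4OHT. Within 5 kb of the Myb start, H3K4me2 covered 6301 bp in DMSO, 6751 bp under MM-401, 7326 bp in EtOH and 6426 bp under 4OHT. The number of peaks that made up this stretch was 5, 1, 3 and 3 in the same order. A change in the number of H3K4me2 peaks near Myb was therefore mostly a change in how a continuous domain was divided, and covered length was used to compare the lists.

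**Figure D1:**
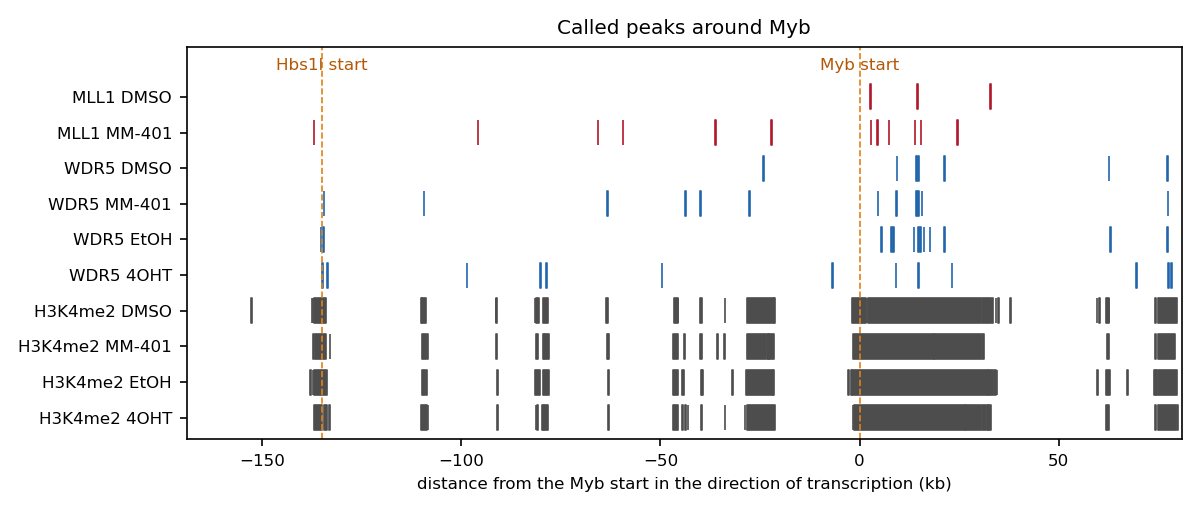
Peaks of all 10 lists in the Myb window. The x axis is the distance from the Myb start in kb, positive into the gene, and each bar is a peak (bars have a minimum drawn width), with MLL1 in red, WDR5 in blue and H3K4me2 in grey. The H3K4me2 domain over Myb is 33.0 to 37.4 kb long in the 4 conditions, and WDR5 recurs inside it at 15 kb.

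WDR5 was called inside the Myb gene rather than at its start. The WDR5 peak nearest to the start lay about 9 kb into the gene in DMSO, 5 kb under MM-401 and 6 kb in EtOH, and 7 kb upstream of the gene under 4OHT. The same place, near 15 kb into the gene, was occupied in all 4 conditions. WDR5 was called there at chr10:20866076-20866400 in DMSO, chr10:20866176-20866900 under MM-401, chr10:20866176-20866250 in EtOH and chr10:20866126-20866300 under 4OHT. The widest of these 4 peaks was the one under MM-401. In DMSO an MLL1 peak, chr10:20866404-20866617, began 4 bp past the end of this WDR5 peak and overlapped the next one, chr10:20866576-20866775.

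Around it, further WDR5 peaks in the gene lay at 9, 14 and 21 kb in DMSO, 5, 9 and 16 kb under MM-401, 6, 8, 14, 15, 16, 18 and 21 kb in EtOH, and 9 and 23 kb under 4OHT. The gene thus held several WDR5 calls in each list. Beyond its 3′ end, WDR5 was also called at 63 kb in DMSO and EtOH and at 70 kb under 4OHT.

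A second WDR5 site called in all 4 conditions lay at chr10:20803276-20803775, 77 kb beyond the Myb start on the side of Ahi1, a gene for a protein of the base of cilia. This site joined peaks within 500 bp, and its EtOH and 4OHT peaks lay 151 bp apart without shared bases. It fell in an H3K4me2 element of 4450 to 5100 bp. Under 4OHT a further WDR5 peak, chr10:20802626-20802750, lay in the same element. Across the 3 windows, WDR5 peaks joined within 500 bp made 52 sites, of which 36 were called in 1 condition, 8 in 2 conditions, 4 in 3 and 4 in all 4. Over the whole genome 4.54% of such sites were called in all 4. The 4 shared sites were the 2 in the Myb window and 2 in the BENC window, and the Myc window had none.

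The interval between Myb and Hbs1l held isolated islands of H3K4me2 in place of a continuous domain. Between 5 kb upstream of Myb and 5 kb before the Hbs1l start, H3K4me2 covered 12925 bp in DMSO, 12925 bp under MM-401, 13525 bp in EtOH and 13025 bp under 4OHT, or 10.3 to 10.8% of the 125 kb. The longest island lay 21 to 29 kb upstream of Myb. It measured 7.08 kb in DMSO (chr10:20902301-20909375), 6.95 kb under MM-401, 7.00 kb in EtOH and 7.53 kb under 4OHT, so the 4 conditions hardly differed there.

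Smaller islands called in all 4 H3K4me2 lists lay 40, 46, 63, 80, 91 and 109 kb upstream of Myb. The one at 80 kb, chr10:20958951-20962575, held 2175 bp of H3K4me2 in DMSO, 1850 bp under MM-401, 2600 bp in EtOH and 2000 bp under 4OHT. The one at 109 kb, chr10:20989401-20991100, held 1100 bp, 1425 bp, 1175 bp and 1450 bp in the same order. The former was thus shorter, and the latter longer, in each treated list than in its control.

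WDR5 in the Myb-Hbs1l interval differed more than H3K4me2. There was 1 WDR5 peak in DMSO and 0 in EtOH, against 5 under MM-401 and 5 under 4OHT. The DMSO peak was at chr10:20905076-20905150, inside the long island 24 kb upstream. The MM-401 peaks lay 28, 40, 44, 63 and 109 kb upstream, and 4 of the 5 overlapped H3K4me2. The 4OHT peaks lay 7, 50, 79, 80 and 99 kb upstream, and of these the one at 79 kb alone overlapped H3K4me2. None of the positions was common to both treatments, and the whole WDR5 lists were also longer after treatment (17273 against 14481 peaks, and 41054 against 34587). At the Hbs1l start, which encodes a translation factor, WDR5 was called in EtOH, under 4OHT and under MM-401, each time within 1 kb of the start, but not in DMSO. Another 4OHT peak, chr10:21014476-21014675, lay just before it.

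At Myc, H3K4me2 formed a compact domain over the promoter and the gene. It measured 8.07 kb in DMSO (chr15:61814601-61822675), 6.92 kb under MM-401, 6.95 kb in EtOH and 7.62 kb under 4OHT. Its rank by length was 1164 in DMSO, 1449 with MM-401, 2750 in EtOH and 1569 with 4OHT, far below that of the Myb domain. Within 5 kb of the Myc start it covered 6475 bp in DMSO, 6750 bp under MM-401, 6950 bp in EtOH and 6925 bp under 4OHT. The EtOH list held it as a single peak, while 6 peaks made it up in DMSO, 3 under MM-401 and 3 under 4OHT.

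No peak of any of the 10 lists lay in the first 62 kb of the window, upstream of the Myc domain. Between Myc and Pvt1 H3K4me2 covered at most 500 bp.

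**Figure D2:**
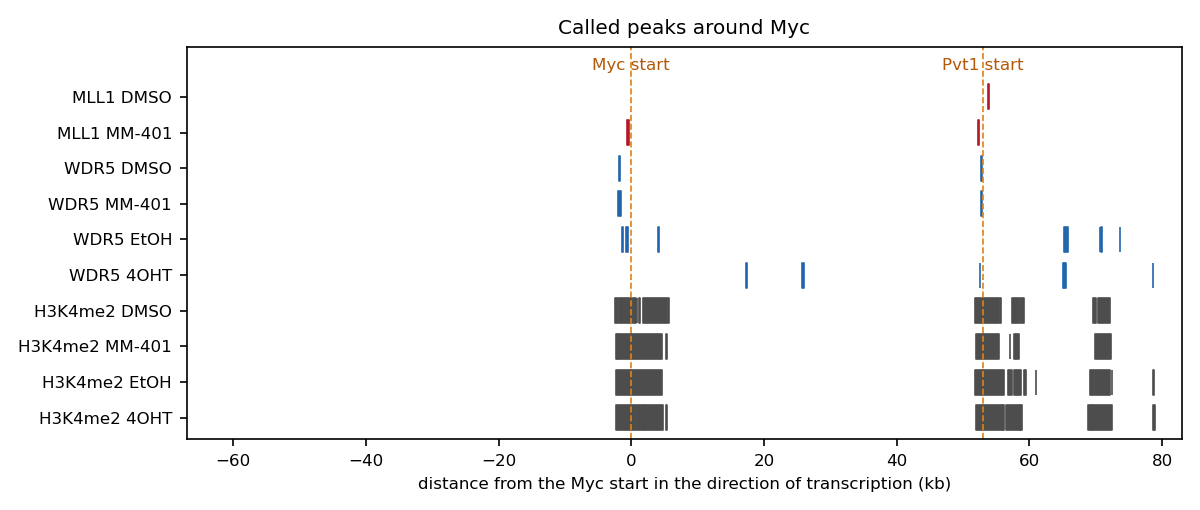
Peaks of all 10 lists in the Myc window. The x axis is the distance from the Myc start in kb, positive into the gene, and each bar is a peak (bars have a minimum drawn width), with MLL1 in red, WDR5 in blue and H3K4me2 in grey. Calls group at the starts of Myc and Pvt1 and inside Pvt1. Under 4OHT no WDR5 peak is called within 5 kb of the Myc start. Over the whole list, 81.5% of EtOH WDR5 peaks are not overlapped under 4OHT, a share that does not measure distance.

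WDR5 was called at the Myc promoter in 3 of the 4 conditions. The peak was chr15:61815076-61815250 in DMSO and chr15:61815026-61815400 under MM-401, both about 2 kb upstream of the start and overlapping each other. EtOH had 2 peaks in the promoter, chr15:61815601-61815800 and chr15:61816276-61816450, and another, chr15:61820976-61821125, at 4 kb into the gene. Under 4OHT no WDR5 peak lay within 5 kb of the start, and the nearest was 17 kb downstream. Thus the Myc promoter kept its WDR5 call under MM-401 and had none under 4OHT, in 1 library each. Over the whole lists, 59.9% of DMSO WDR5 peaks were absent under MM-401 and 81.5% of EtOH peaks under 4OHT. By overlap of at least 1 bp, a missing call was therefore the usual outcome under 4OHT. The EtOH peaks at the Myc start lay 13101 to 18426 bp from the nearest 4OHT peak. No whole-list share was computed for such distances, so whether this was particular to Myc was not tested.

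Pvt1, the long non-coding RNA gene that follows Myc, carried H3K4me2 at its start in all 4 lists (4425 bp in DMSO, 3875 bp under MM-401, 5175 bp in EtOH and 5850 bp under 4OHT within 5 kb). WDR5 was called there in DMSO, under MM-401 and under 4OHT, each within 1 kb of the start, and not in EtOH. Further into Pvt1, WDR5 had 5 peaks in EtOH, 3 under 4OHT and 0 in both MAF9 lists, which were also the shorter lists overall (14481 and 17273 peaks against 34587 and 41054). From the Myc start they lay at 65, 66, 71 and 74 kb in EtOH, with 2 at 71 kb, and at 65 and 79 kb under 4OHT, with 2 at 65 kb. Both lists shared a site without H3K4me2, chr15:61882076-61882750. Under 4OHT, WDR5 was also called at 17 and 26 kb, between Myc and Pvt1.

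The BENC window had many separate islands and no domain as long as the one over Myb. H3K4me2 covered 30050 bp in DMSO, 33075 bp under MM-401, 31350 bp in EtOH and 34250 bp under 4OHT, or 8.59 to 9.79% of the 350 kb. The window lies 1.5 to 1.8 Mb from Myc, and the islands called in all 4 lists lay from 1.51 to 1.74 Mb. A long island near 1.63 Mb measured 7.17 kb in DMSO (chr15:63441926-63449100), 7.78 kb under MM-401, 7.75 kb in EtOH and 7.42 kb under 4OHT. It was a single peak in EtOH and under 4OHT, and was made of 5 peaks in DMSO and 5 under MM-401. Under 4OHT a domain near 1.67 Mb was slightly longer, at 7.55 kb.

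The island near 1.62 Mb, chr15:63431876-63438875 across all lists, had the widest range in bp within BENC. It held 3150 bp of H3K4me2 in DMSO, 5300 bp under MM-401, 4475 bp in EtOH and 5350 bp under 4OHT. The one near 1.67 Mb, chr15:63483576-63492700, held 5325 bp, 5375 bp, 5450 bp and 6825 bp. In the island near 1.66 Mb, the values were 3900 bp, 3200 bp, 3250 bp and 3575 bp, so the direction was not common to all islands.

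WDR5 marked 2 BENC sites in every condition. The first, near 1.67 Mb, was called at chr15:63486276-63486550 in DMSO, chr15:63486351-63486450 under MM-401, chr15:63485526-63485625 in EtOH and chr15:63485651-63485800 under 4OHT. The DMSO and MM-401 peaks overlapped each other, whereas the EtOH and 4OHT peaks were 26 bp apart and overlapped neither of them. The second, near 1.72 Mb, was called at chr15:63536251-63536600 in DMSO, chr15:63536201-63536650 under MM-401, chr15:63536051-63536500 in EtOH and chr15:63536376-63536525 under 4OHT. These 4 peaks shared bases with one another, and the 4OHT peak was the narrowest at 150 bp. The other WDR5 calls in BENC recurred less. In DMSO they lay at 1512, 1599, 1616, 1619, 1629, 1663, 1673 and 1680 kb from the Myc start, with 2 peaks at 1663 kb. With MM-401 they lay at 1599, 1618, 1628 and 1744 kb, with 2 peaks at 1618 kb. In EtOH they lay at 1552, 1619 and 1622 kb, and with 4OHT at 1512, 1663, 1667, 1672, 1740 and 1743 kb.

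H3K4me2 overlapped the second shared site, near 1.72 Mb, under MM-401 and in EtOH, and ended 76 bp from it in DMSO and 126 bp from it under 4OHT. At the first, near 1.67 Mb, the EtOH WDR5 peak lay 276 bp from H3K4me2, and the peaks of the other lists overlapped H3K4me2.

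**Figure D3:**
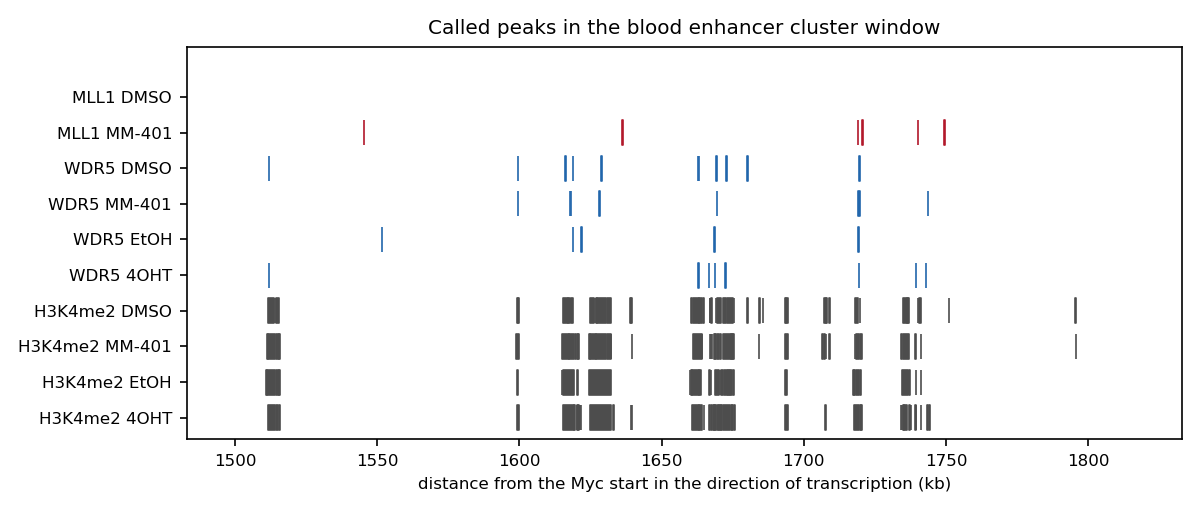
Peaks of all 10 lists in the BENC window. The x axis is the distance from the Myc start in kb, and each bar is a peak (bars have a minimum drawn width), with MLL1 in red, WDR5 in blue and H3K4me2 in grey. WDR5 falls mostly inside the H3K4me2 islands except in EtOH, where 3 of 5 peaks lie outside. At 1669 and 1719 kb, 2 sites are called in all 4 conditions, and the MLL1 DMSO row is empty.

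When the peaks of all 10 lists were joined across gaps of up to 500 bp, the windows held 59 elements. Of these, 24 had H3K4me2 in all 4 lists, which compares with 31.9% of the elements of the whole genome. Another 20 had H3K4me2 in 1 to 3 lists, and 15 had WDR5 or MLL1 without H3K4me2. Of the 24, 20 also had WDR5 in 1 or more lists (56.9% of such elements genome-wide), and 4 had WDR5 in all 4 (10.4%). The elements here were few, and longer elements have more room for a WDR5 call, so these shares are descriptions. The 4 without WDR5 were the islands 46 and 91 kb upstream of Myb and those at 1.69 Mb (chr15:63510251-63511325) and 1.74 Mb (chr15:63551101-63554800) from Myc.

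Gene-proximal and distal sequence differed strongly in H3K4me2. Within 5 kb of the Myb and Myc starts, peaks covered 63.9% of the 20 kb in DMSO, 67.5% with MM-401, 71.4% in EtOH and 66.7% with 4OHT. In the 656 kb of distal sequence, which includes the Myb gene body, they covered 12.0%, 11.7%, 12.2% and 12.3%. The ratio of proximal to distal coverage was 5.33 in DMSO, 5.75 with MM-401, 5.83 in EtOH and 5.43 with 4OHT. In absolute length the distal side was the larger, with 78674 bp in DMSO against 12776 bp at the 2 starts. Neighbouring genes in the windows (the starts and bodies of Hbs1l and Pvt1) were kept apart from both classes.

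WDR5 had more peaks in the distal class, which spans 656 kb against 20 kb of proximal sequence. Its peaks within 5 kb of the Myb and Myc starts numbered 1 in DMSO, 2 with MM-401, 3 in EtOH and 0 with 4OHT, against 18, 16, 16 and 21 distal ones. As percent of sequence covered, proximal against distal, WDR5 had 0.875 against 0.534% in DMSO and 2.50 against 0.438% with MM-401. In EtOH the values were 2.62 against 0.381%, and with 4OHT 0 against 0.427%. With at most 3 peaks in the 20 kb of proximal sequence, these percentages are descriptions.

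**Figure D4:**
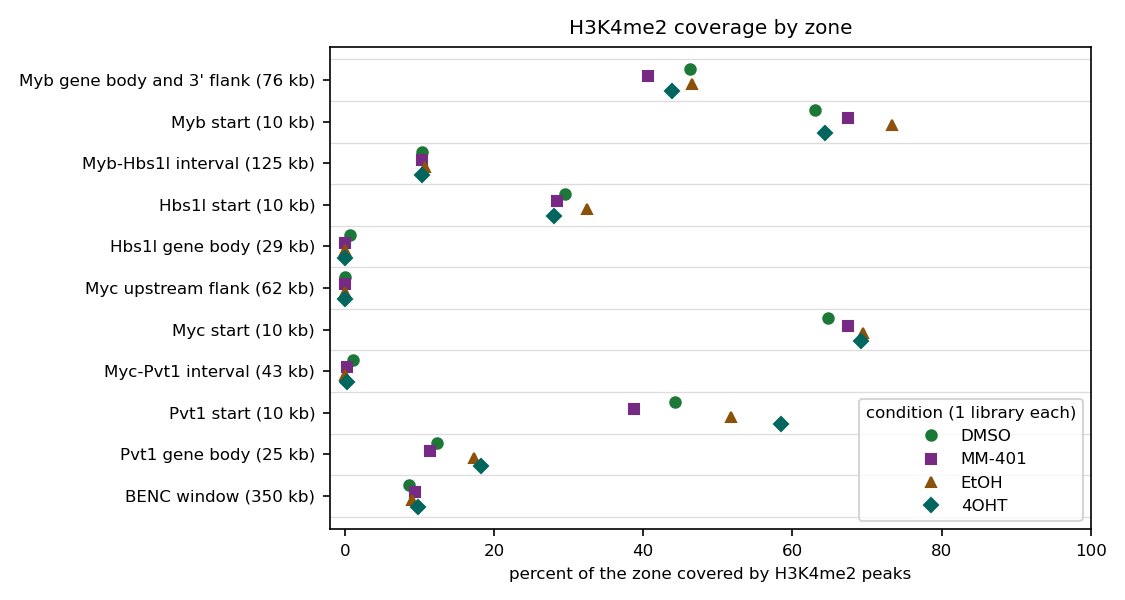
Percent of each zone covered by H3K4me2 peaks in DMSO, MM-401, EtOH and 4OHT (1 library each, so no error bars). The starts of Myb and Myc lie between 63.0 and 73.3%, the Myb gene body and flank between 40.6 and 46.5%, and the Myb-Hbs1l interval and BENC between 8.59 and 10.8%.

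WDR5 inside H3K4me2 was the rule in MAF9 cells. In DMSO 2 of the 20 WDR5 peaks of the windows lay outside H3K4me2 (11.3% over the whole list), and under MM-401 2 of 20 did (12.3%). In EtOH 7 of 26 lay outside (whole list 45.7%), and under 4OHT 13 of 27 (52.9%). The 95% Wilson interval was 13.7 to 46.1% for EtOH and 30.7 to 66.0% for 4OHT, and the intervals cover counting only. Under 4OHT the 13 comprised 7 in the Myb window, 4 in the Myc window and 2 in BENC. Conversely, 17 of 95 H3K4me2 peaks overlapped WDR5 in DMSO (whole list 11.0%), 14 of 79 under MM-401 (13.6%), 8 of 72 in EtOH (13.0%) and 11 of 89 under 4OHT (15.5%).

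To compare H3K4me2 at these loci with and without the inhibitor of MLL1-WDR5 binding, the MM-401 list was set against DMSO. Over the Myb window the covered length went from 57600 to 53400 bp, a ratio of 0.927, close to the 0.935 of the whole list. At the Myc window it went from 14500 to 13625 bp, a ratio of 0.940, or 1.01 both among the widest 50% of each list and among peaks of 500 bp or more. In BENC it was longer under MM-401, at 33075 against 30050 bp, a ratio of 1.10. Of 2656 tiles of 350 kb with at least 10 kb of H3K4me2 in both controls, 20.1% were longer under MM-401. Most of the difference at Myb was in the gene body and 3′ flank, which went from 35199 to 30874 bp, while the 10 kb around the start went from 6301 to 6751 bp.

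By overlap, 27 of the 95 DMSO H3K4me2 peaks were absent under MM-401, or 28.4% (95% Wilson interval 20.3 to 38.2%), against 30.5% over the whole list. The share was 14 of 36 in the Myb window, 4 of 14 at Myc and 9 of 45 in BENC. In the other direction 20 of 79 MM-401 peaks were absent in DMSO, where the whole list gave 19.9%. The absent DMSO peaks were 75 to 425 bp wide. Of those 500 bp or wider, 0 of 38 were absent under MM-401 (whole list 3.06%), and 0 of 32 MM-401 peaks of that width were absent in DMSO (0.989%). Absence at this width was rare over the whole lists too, and the 95% Wilson intervals (up to 9.18% and 10.7%) held those shares.

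Deletion of Mll1 was examined with the 4OHT and EtOH lists. The Myb window went from 59475 to 55525 bp of H3K4me2, a ratio of 0.934, against 0.905 for the whole list. The Myc window went from 16450 to 17475 bp (1.06), mostly at Pvt1, and BENC from 31350 to 34250 bp (1.09). Longer H3K4me2 under 4OHT was found in 14.6% of the tiles, and longer H3K4me2 under both treatments in 6.21%. BENC was thus longer in both treated lists while the whole lists were shorter. The BENC ratio under 4OHT was 0.971 among the widest 50% of each list, and 1.03 among peaks of 500 bp or more.

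Of the 72 EtOH peaks, 19 were absent under 4OHT, or 26.4% (95% Wilson interval 17.6 to 37.6%), against 37.2% over the whole list. Of the 89 4OHT peaks, 28 were absent in EtOH, or 31.5% (22.8 to 41.7%), against 21.2%. These were 20 of 48 in BENC, 7 of 30 in the Myb window and 1 of 11 at Myc. They were narrow, with a median of 125 bp. Several peaks can divide 1 island: those near 1.62 and 1.67 Mb held 8 and 12 peaks under 4OHT, against 3 and 9 in EtOH. Such peaks are not independent, so the intervals cover counting only and do not test a difference from the whole list. Among peaks of 500 bp or more, 0 of 31 EtOH peaks were absent under 4OHT (whole list 2.33%) and 1 of 36 4OHT peaks was absent in EtOH (0.717%). That peak was chr15:63436126-63436625, exactly 500 bp wide and 26 bp from the nearest EtOH peak, in the island near 1.62 Mb.

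Of the 11 elements of the Myb window with H3K4me2 in all lists, 8 were shorter under MM-401 (56.7% of such elements genome-wide), 8 under 4OHT (65.6%) and 7 under both (39.6%). Of the 10 in BENC, 8 were longer under MM-401 (40.2% genome-wide), 6 under 4OHT (31.7%) and 4 under both (15.2%), while 0 were shorter under both. The elements are few, and neighbouring ones share a library, so these counts are descriptions. In bp the largest shift was in the domain over Myb, by far the longest element, which held 34975 bp in DMSO against 32600 bp with MM-401, and 36475 bp in EtOH against 33850 bp with 4OHT. EtOH against DMSO, which differ in cell line and solvent but in no treatment, gave 7 longer and 4 shorter at Myb and 7 longer and 3 shorter in BENC.

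**Figure D5:**
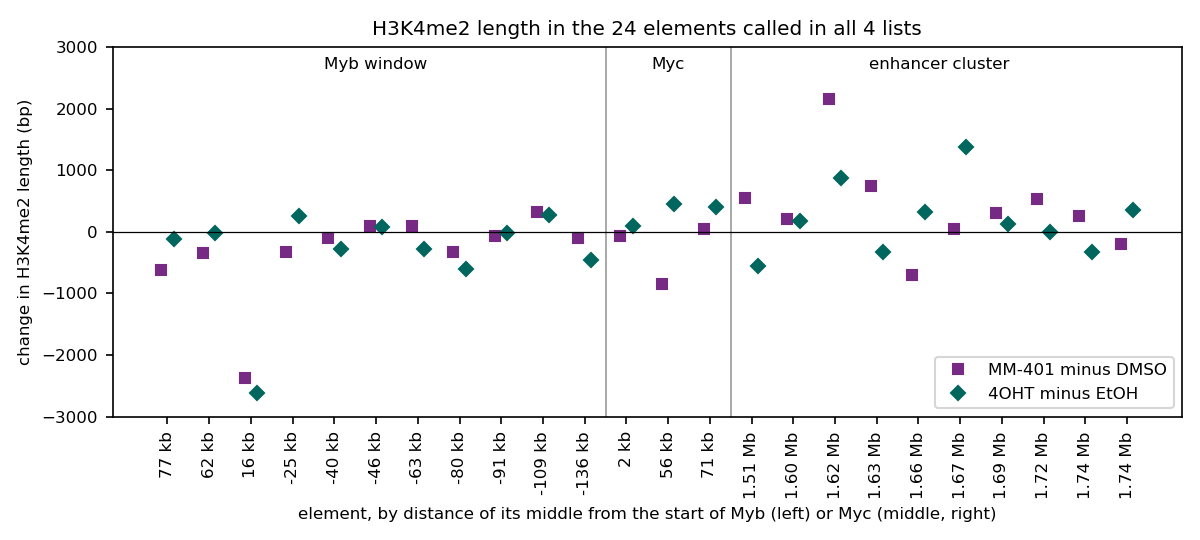
Change in H3K4me2 length in bp for the 24 elements called in all 4 H3K4me2 lists, as MM-401 minus DMSO (squares) and 4OHT minus EtOH (diamonds), by distance from the Myb or Myc start. The Myb gene domain, with its middle at 16 kb, lies below 0 for both treatments, and 8 of 10 BENC elements lie above 0 under MM-401.

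The solvent controls showed how far untreated lists differed. Of the 95 DMSO H3K4me2 peaks, 29 were absent in EtOH (whole list 30.6%), slightly more than the 27 absent under MM-401. H3K4me2 covered 1.03 times as much of the Myb window in EtOH as in DMSO, 1.13 times at Myc and 1.04 times in BENC. The ratio between untreated lists at Myc was thus farther from 1 than any ratio of treated to control. Differences of this size could not be separated from library differences with 1 library each.

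WDR5 peaks overlapped poorly between conditions. Of 20 DMSO WDR5 peaks 12 were absent under MM-401 (whole list 59.9%), and of 20 MM-401 peaks 13 were absent in DMSO (65.8%). Of 26 EtOH peaks 23 were absent under 4OHT (81.5%), and of 27 4OHT peaks 24 were absent in EtOH (84.4%). Between the controls, 15 of 20 DMSO peaks were absent in EtOH (65.5%). The 95% Wilson interval of each share held the value of its whole list, the widest being 38.7 to 78.1% for DMSO against MM-401. The 3 EtOH peaks that a 4OHT peak overlapped were the one inside Myb at 15 kb, the one in Pvt1 without H3K4me2 and the BENC site near 1.72 Mb. In BENC the number of WDR5 peaks was 11 in DMSO, 7 with MM-401, 5 in EtOH and 8 with 4OHT.

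MLL1 in DMSO was called at 4 places. In the Myb gene the peaks were chr10:20848034-20848216 near its 3′ end, chr10:20866404-20866617 at 14 kb and chr10:20878241-20878365 at 3 kb from the start. The fourth, chr15:61870794-61870980, was 1 kb into Pvt1. All 4 lay in H3K4me2, with 0 of 4 outside (whole list 48.4%). No DMSO MLL1 peak was called at the Myc start or in BENC.

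The MM-401 list held 20 MLL1 peaks in the windows, but its peak names and grid differ from the DMSO list, for which the study describes another caller, so the numbers were not compared. In the Myb gene they lay at 3, 5, 7, 14, 15 and 25 kb from the start, and upstream of Myb at 22, 36, 59, 66, 96 and 137 kb, the last beside the Hbs1l start. The 6 in BENC lay at 1545, 1636, 1719, 1721, 1740 and 1750 kb from the Myc start. The Myc start had chr15:61816401-61816600, and the Pvt1 start chr15:61869201-61869425. Of the 20, 9 lay outside H3K4me2 (whole list 57.6%), 5 of them in BENC. None of the 4 DMSO peaks was overlapped under MM-401 (94.7% of the whole list was not), and none of the 20 MM-401 peaks was overlapped in DMSO (98.3%). The DMSO peaks at 3 and 14 kb into Myb lay 116 and 384 bp from the nearest MM-401 peak. The one at Pvt1 lay 1369 bp away, and the one near the 3′ end of Myb 8010 bp away. No whole-list share was computed for such distances, so they are descriptions.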

How the data were processed

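The authors deposited 1 peak list for each of 10 ChIP libraries as positions in bp (chromosome, start and end), with no score or count. The 4 input libraries were not analysed here. The submitters' processing notes name Bowtie and mm9, with versions not given in the sources used here. All other lists than that of MLL1 in DMSO carry HPeak names and a grid of 25 bp, and both ends of their 1-based intervals were included. That list has neither, the study describes MACS for it, and its starts were read as 0-based.

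Python 3.11.15, with numpy 2.4.6, took the peaks touching the windows, and matplotlib 3.10.9 drew the figures. Sharing at least 1 bp counted as overlap, and shares carry 95% Wilson intervals (scipy 1.17.1). These intervals treat peaks as independent, although several can divide the same island, so they cover counting only. Overlap counting was tested on simulated data and gave the same counts as bedtools 2.31.1. Gene starts came from general knowledge of mm9, rounded to 1 kb, so distances carry that error, and no mm9 sequence was read. Promoter sequences and gene order came from GRCm38.p6 RefSeq tables. Myb lies between Ahi1 and Hbs1l there. Zones were within 5 kb of a start or beyond it.

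The windows and lists of comparisons were chosen with earlier results of these data known. WDR5 and MLL1 peaks are given by position, by distance or within a joined site. H3K4me2 peaks picked out were those within 5 kb of the Myb and Myc starts, and elsewhere the 3 widest per list and window. Those of 500 bp or more without overlap in the partner list were also picked out. Most of the H3K4me2 peaks picked out are given only as joined domains, covered lengths or counts. Elements join peaks within 500 bp. Added after the lists had been examined were a minimum width of 500 bp for covered length and genome-wide element directions. The domain ranks, tiles, CpG counts and the islands singled out were chosen after the lists had been examined. As alternatives, a gap of up to 2 kb was allowed for a shared peak, 50% of a peak had to be covered, lists were limited to their widest 50%, the longer list was shortened to equal number, or the proximal radius was 2 or 10 kb.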

Additional observations from a re-analysis of the deposited data

Results flagged for a closer look

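Several zones changed in opposite directions under MM-401 against DMSO and under 4OHT against EtOH, as covered length. H3K4me2 within 5 kb of the Myb start was longer by 450 bp under MM-401 and changed by -900 bp under 4OHT. Within 5 kb of the Myc start the changes were 275 and -25 bp, the latter 1 step of the 25 bp grid (ratio 0.996). EtOH minus DMSO, without treatment, was 1025 bp at the Myb start and 475 bp at the Myc start. Between Myc and Pvt1 H3K4me2 changed by -350 and 125 bp, at the Pvt1 start by -550 and 675 bp, and in the Pvt1 gene body by -250 and 250 bp. WDR5 at the Myc start changed by 200 bp under MM-401 and by -525 bp under 4OHT, at the Pvt1 start by -50 and 75 bp, and in BENC by -1075 and 100 bp. With 1 library per condition none of these differences was tested.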

How the results depend on the processing

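Of 69 values recomputed, 54 stayed within the interval or the 1.5-fold range of the value reported without reversing direction. Another 12 moved out of it, and 3 ratios reversed direction. The ratios of covered length lay between 0.919 and 1.21 in all settings, so the 1.5-fold range could hardly be left. For example, the BENC ratio of EtOH to DMSO counted as unchanged at 1.04 and at 1.21 (widest 50%). The number that stayed is therefore no measure of how stable these ratios were. Counting peaks up to 2 kb apart as shared raised the share of control peaks found in the other list to 92.6% for H3K4me2 under MM-401, 95.8% under 4OHT and 87.4% for DMSO in EtOH, to 53.8% for WDR5 under 4OHT and to 75.0% (3 of 4) for MLL1. With that gap, H3K4me2 peaks with WDR5 made up 33.7% in DMSO and 40.5% under MM-401, and 27.8 and 39.3% in EtOH and 4OHT. Whole-list shares were computed neither with that gap nor for the widest 50% of each list. These shares therefore describe the windows only and cannot tell whether the loci differ from other peaks. With the widest 50% of each list, H3K4me2 overlap was 87.8% under MM-401 and 92.7% for DMSO in EtOH, and 9.76% of DMSO H3K4me2 peaks had WDR5. That setting reversed 2 ratios of covered H3K4me2, to 1.01 in the Myc window under MM-401 and to 0.971 in BENC under 4OHT. With peaks of 500 bp or more, a setting added after the lists had been examined, the Myc window ratio under MM-401 was also 1.01, and the BENC ratio under 4OHT was 1.03. The cause was not tested. No paired analysis was possible because the labels carry no replicate numbers and each condition had 1 library, so leaving out a replicate was not possible either. Unknown depth, 2 peak callers for MLL1 and rounded gene starts limit what the lists can show.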
